A study of Rattus norvegicus with 30 samples.

Results

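The hippocampus of rats given kainate was compared with that of rats given phosphate-buffered saline (PBS) 72 hours earlier. There were 3 arrays in each group, taken from a series of 30 arrays in 10 groups of 3 (kainate or PBS, at 1, 6, 24, 72 and 240 h). All samples were total RNA of rat hippocampus. The labels give the species, the tissue, the agent and the time of sacrifice. They give no strain, age, sex, dose, route or seizure score, and they number the replicates without saying that each came from a separate animal. P-values here therefore rest on the spread between arrays, which may in part be technical. In limma that spread is pooled over all 30 arrays. Of 8740 probe sets that are not array controls, the 5426 with a signal above 35 on at least 3 of the 6 arrays of 72 h were tested (62.1%). A total of 4748 of these were above 35 on all 6 arrays and 181 on exactly 3, while 232 probe sets with exactly 2 arrays above 35 fell just outside. Of the tested probe sets, 4529 carry the symbol of 1 gene, which gave 3263 genes, each represented by its brightest probe set. The other tested probe sets carry several symbols (210) or none in the annotation used (687).

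Kainate is an agonist of a class of ionotropic glutamate receptors and is used in rodents to provoke prolonged limbic seizures, after which pyramidal neurons of the hippocampus can die. In the days after such seizures astrocytes and microglia become reactive, and neurons and glia switch on chaperones and antioxidant enzymes. Oligodendrocytes wrap axons in myelin, a membrane built of a few very abundant proteins and lipids. Chaperones of the endoplasmic reticulum, such as Hspa5 and the protein disulfide isomerases, fold secreted and membrane proteins and are switched on together when unfolded proteins accumulate.

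Markers of the main brain cell types were above the signal filter. All 24 neuron markers present on the array were tested, with a median PBS signal of 906. So were 17 of 18 astrocyte markers, 10 of 16 microglia and macrophage markers and 17 of 17 oligodendrocyte and myelin genes. These markers do not tell the hippocampus from other brain regions, and the tissue is taken from the labels. Correlations between pairs of the 6 arrays lay between 0.956 and 0.977, with a median of 0.971 within a group and 0.966 between groups. The median SD within a group was 0.186 on the log2 scale at 72 h, against 0.215 to 0.306 at the other times. The log2 ratio of the 3' to the 5' probe set differed between kainate and PBS by 0.07 for beta-actin and by −0.05 for hexokinase (exact permutation test, two-sided, p = 0.5 and 0.7, 3 arrays per group, smallest possible p 0.1). For Gapdh it was −0.08, −0.17 and −0.14 on the kainate arrays and 0.01, 0.02 and −0.06 on the PBS arrays, so that the groups did not overlap (difference −0.12, exact p = 0.1). The part of this RNA quality difference in the results was not tested. Transthyretin (Ttr), a product of the choroid plexus next to the hippocampus, varied within both groups, at 1919, 252 and 114 on the PBS arrays and 123, 3404 and 1514 on the kainate arrays.

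At 72 h few single genes differed from the PBS controls past the adjusted threshold. With limma fitted over all 30 arrays and Benjamini-Hochberg adjustment, 4 of 5426 probe sets rose (0.0737%) and 0 fell, while 379 had an unadjusted p under 0.05 (240 higher and 139 lower). The 4 were S100a4 and B4galt6, which are 2 of the 3263 genes (0.0613%), and a pair of probe sets without a symbol. The median log2 difference of the 3263 genes was −0.04 and the median absolute difference 0.17. Only 20 genes differed by more than 2-fold, 12 higher and 8 lower, and in 12 of the 20 the lower group had a mean signal under 35. When arrays were weighted by how closely they followed the fit, 152 probe sets passed (109 higher and 43 lower), the 4 included. With only the 6 arrays of 72 h 0 passed, and 0 passed with the replicate number within each time as a block. When 1 of the 6 arrays was left out, the number passing was 0 (without kainate replicate 1 or 2) or 1 (without kainate replicate 3 or any PBS replicate). The 1 that passed without PBS replicate 3 was not among the 4.

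S100a4, a calcium-binding protein of the S100 family found in motile and reactive cells, had signals of 47.4, 24.3 and 36.9 on the PBS arrays and 143, 89.1 and 67.9 on the kainate arrays. The groups did not overlap, and kainate replicate 1 was the highest. The rise was 1.45 ± 0.28 (log2 ± SE, n = 3 per group), or 2.73-fold, with an adjusted p of 0.0389 in limma. S100a4 passed in 2 of the 6 fits that left out an array (without PBS replicate 1 and without kainate replicate 3), with adjusted p between 0.0265 and 0.295 over the 6. Its difference had been 2.92 at 24 h and was 0.39 at 240 h.

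B4galt6, the galactosyltransferase that makes lactosylceramide, the precursor of many brain glycolipids, stood at 280, 426 and 288 in PBS and 506, 543 and 543 after kainate. All 3 kainate arrays lay above the highest PBS array. It rose by 0.71 ± 0.14, or 1.63-fold (limma adjusted p = 0.0477), while at 24 h its log2 difference was 0.24, not past the threshold. Its adjusted p without 1 array ran from 0.00249 (without PBS replicate 2, the highest PBS array) to 0.358.

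The probe set D00636Poly_A_Site#1_s_at had signals of 254, 302 and 280 in PBS and 513, 449 and 480 after kainate, a rise of 0.79 ± 0.15 or 1.73-fold (limma adjusted p = 0.0389). The annotation leaves it without a symbol. Looked up after these values were seen, another probe set of the same accession is listed under Cyb5r3, a NADH-dependent cytochrome b5 reductase used in fatty acid desaturation and elongation. The probe set that represents Cyb5r3 read 350, 434 and 398 in PBS and 607, 531 and 639 after kainate, without overlap, at 0.59 ± 0.16 (adjusted p = 0.198). The probe set AF028784mRNA#1_s_at, also without a symbol, read 2029, 1565 and 1880 in PBS and 2762, 2715 and 2631 after kainate. It rose by 0.58 ± 0.12, or 1.49-fold, with an adjusted p of 0.0490, and at 24 h its difference had been 1.26. Neither D00636Poly_A_Site#1_s_at nor AF028784mRNA#1_s_at passed in any of the 6 fits that left out an array. A further probe set named after the same record, AF028784cds#1_s_at, also has no symbol. It read 393, 373 and 420 in PBS and 756, 689 and 644 after kainate, without overlap. Its difference was 0.82 ± 0.19 (limma adjusted p = 0.106). At 24 h its difference had been 2.48, and the fall from 24 h to 72 h passed (limma adjusted p = 0.000736).

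**Figure D1:**
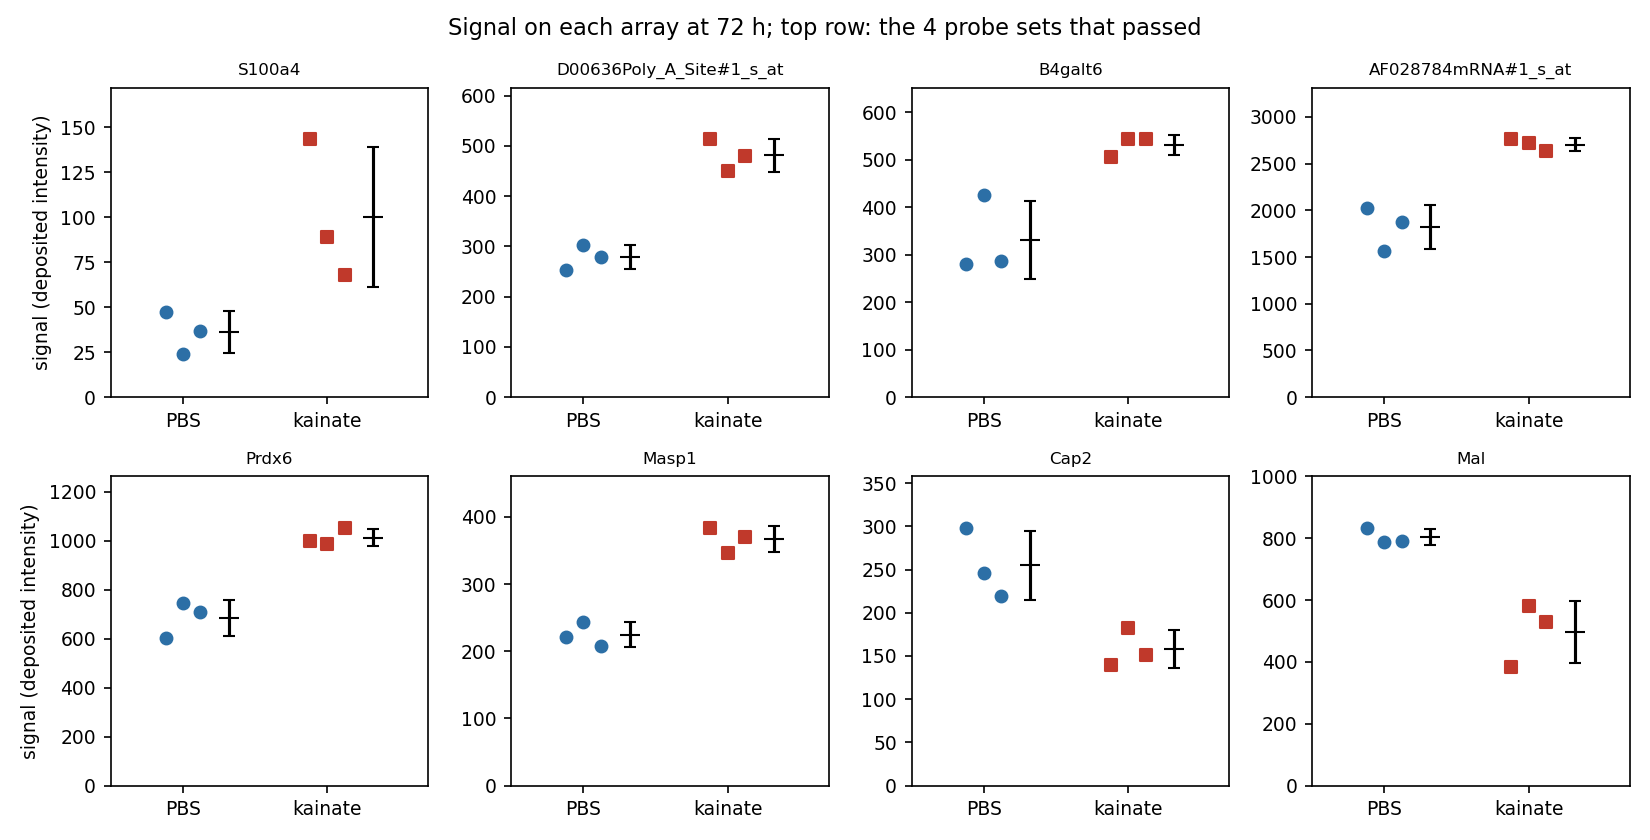
Deposited signal on each of the 6 arrays of 72 h (blue circles PBS, red squares kainate; bars are the mean ± SD of 3 arrays) for the 4 probe sets that passed (top row) and for Prdx6, Masp1, Cap2 and Mal, which did not (bottom row). In each panel the 3 kainate arrays lie wholly above or wholly below the 3 PBS arrays.

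Next to these stood genes whose groups were separate but whose adjusted p missed 0.05. Prdx6, a peroxiredoxin of astrocytes that also has phospholipase activity, read 602, 745 and 709 in PBS and 997, 987 and 1054 after kainate (0.57 ± 0.12, limma adjusted p = 0.0908). Its other tested probe sets, at 0.23 and 0.14, had overlapping groups. Masp1, a serine protease of the lectin pathway of complement, read 222, 244 and 207 in PBS and 384, 346 and 370 after kainate (0.71 ± 0.16, adjusted p = 0.0908). Masp1 passed under quantile normalization (adjusted p = 0.0489) and without the filter on low values (0.0490).

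Further genes on the higher side were Decr1, a mitochondrial reductase for the oxidation of unsaturated fatty acids (0.75 ± 0.17), Nme2, a nucleoside diphosphate kinase (0.51 ± 0.12), and Stx1a, the syntaxin of synaptic vesicle fusion (0.42 ± 0.10), each with an adjusted p of 0.106 in limma. The other probe set of Stx1a went the opposite way, at −0.16, its groups again not overlapping. Nppa, the precursor of atrial natriuretic peptide, was weak in PBS (16.3, 17.1 and 7.10, the last below the floor of 10.9) and read 58.4, 42.5 and 52.0 after kainate (adjusted p = 0.115). It was tested only because the kainate arrays lay above 35, so its direction was fixed by the filter.

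On the lower side no gene passed. The smallest p belonged to Cap2, an actin-regulating cyclase-associated protein, at 299, 246 and 219 in PBS and 140, 183 and 152 after kainate (−0.69 ± 0.18, limma adjusted p = 0.177). Cap2 was the only 1 of the 8 genes with the smallest p on this side whose log2 difference was of like size at all of 24 h (−0.88), 72 h and 240 h (−0.73). Pnoc, the nociceptin precursor of interneurons, differed by −0.45 on 1 probe set (adjusted p = 0.270) and by 0.04 on the other. Dgkz, a diacylglycerol kinase of synapses, was at −0.50 and Fn1, fibronectin, at −0.58 (both adjusted p = 0.307). Ppil3, a cyclophilin-like protein, was at −1.55 (adjusted p = 0.279), but its kainate replicate 3, at 45.1, lay inside the PBS range of 43.0 to 80.9. The remaining members of these 8, Mal, Mobp and Nr4a3, are described with their groups.

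The gene lists differed in how many members had separate groups at 72 h. Of the 3263 genes, 345 had all kainate arrays above all PBS arrays (10.6%) and 429 had all below (13.1%), which is the background for the counts of members with separate groups that follow. On that measure the myelin genes stood at the low end of the lists examined, with 10 of 17 members separate and lower, and the heat shock and endoplasmic reticulum stress genes near the high end, with 8 of 27 separate and higher. For counts of members above or below 0, the background is 1406 genes above and 1857 below. No member of these lists passed the limma threshold over all probe sets, so the counts and medians describe these 6 arrays. In bulk tissue, fewer cells of a type and less RNA per cell cannot be told apart.

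**Figure D2:**
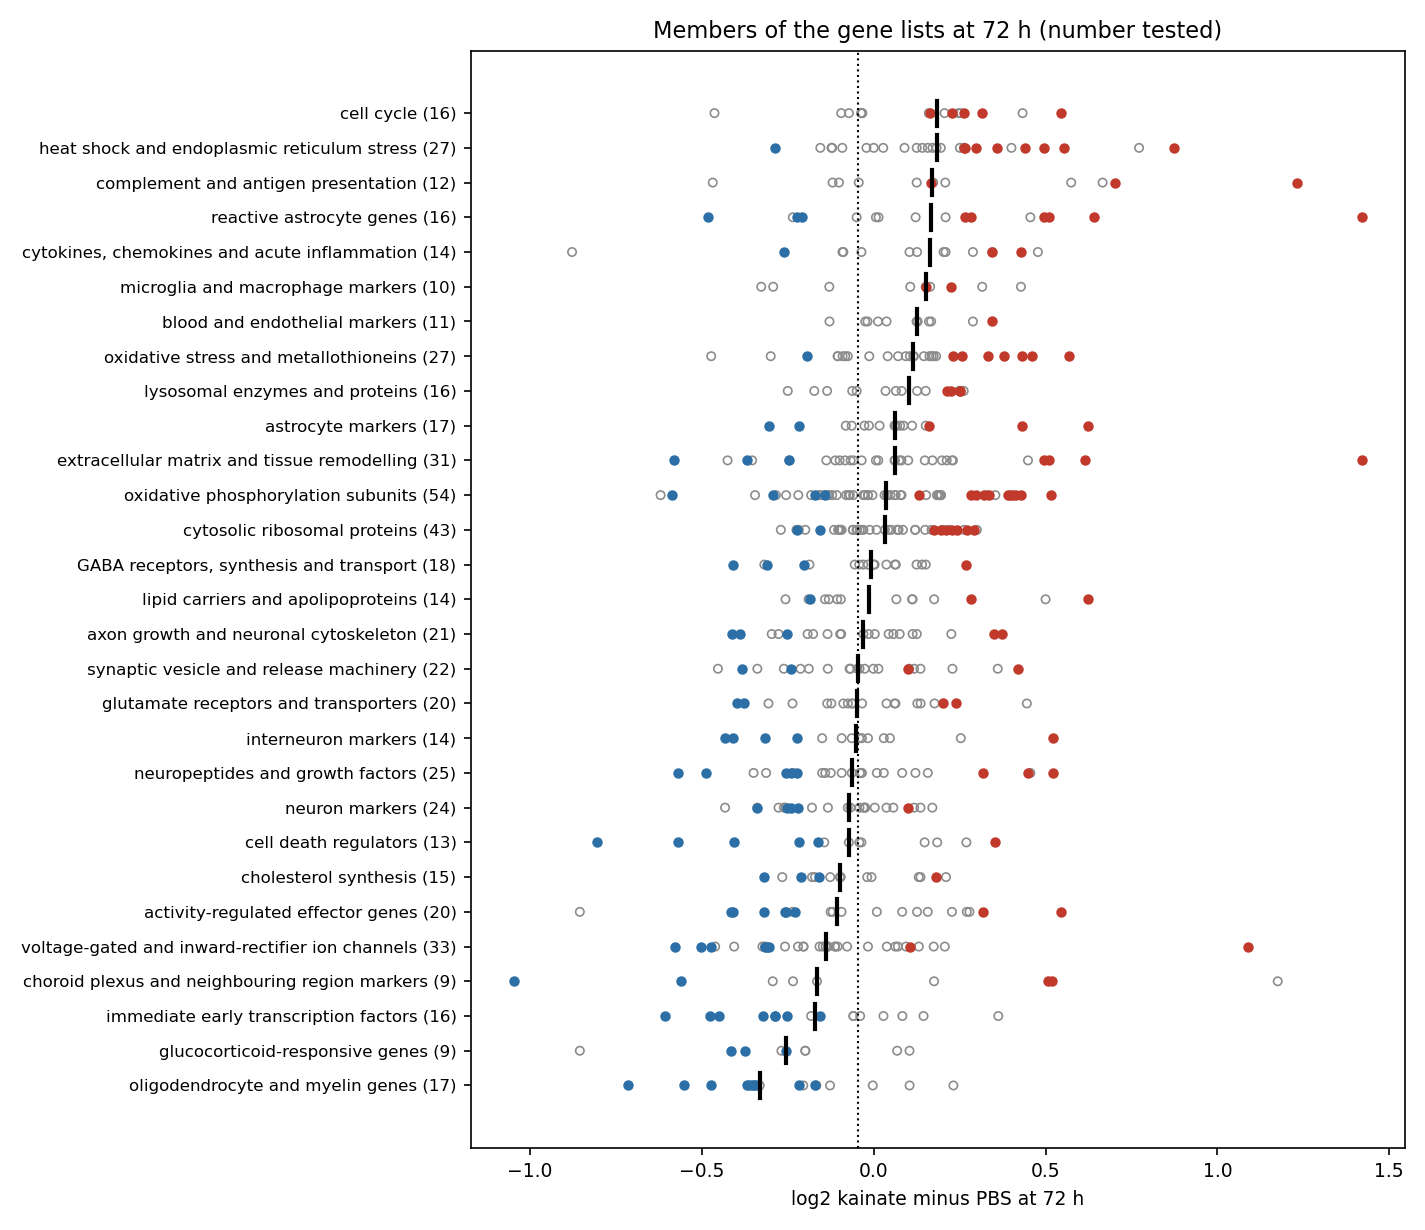
Log2 kainate minus PBS at 72 h for each tested member of 29 gene lists (number of members in brackets), ordered by the list median (black bar). Filled red and blue points are members whose 3 kainate arrays lay wholly above or below the 3 PBS arrays, open points overlap, and the dotted line is the median of all genes, −0.04; the myelin list has the lowest median, −0.33.

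Genes of oligodendrocytes and myelin were the list with the lowest median. All 17 members on the array were tested; 15 lay below 0 and 2 above, with a median log2 difference of −0.33 (range −0.72 to 0.23) against −0.04 for all genes. In 10 members (58.8%, against 13.1% of all genes) every kainate array was lower than every PBS array, and in none was every one higher. Separate, lower groups were also seen in 16 of the 27 tested probe sets of these genes, against 12.6% of all probe sets, and in 15 of 26 without a Mag probe set that was above 35 only on the PBS arrays. With array weights, Mal and Mobp passed as lower, 2 of 17, where 91 of the 3263 genes passed (2.79%), 20 of them as lower (0.613%).

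Mal, a proteolipid of compact myelin, read 834, 787 and 792 in PBS and 383, 579 and 528 after kainate, a difference of −0.72 ± 0.21 (limma adjusted p = 0.270). All kainate arrays were well under the PBS arrays, which differed little from each other. Mag, the myelin-associated glycoprotein that faces the axon, read 1172, 971 and 940 in PBS and 521, 795 and 819 after kainate (−0.55 ± 0.26, adjusted p = 0.698). Its second probe set, at −0.60, was also separate and lower. The remaining probe set was above 35 only on the PBS arrays, which fixed its direction, and had 1 kainate value below the floor, so no size is given for it. Mobp, an abundant basic protein of compact myelin, read 1273, 1257 and 1399 in PBS and 687, 1227 and 988 after kainate (−0.47 ± 0.16, adjusted p = 0.362). All 4 of its probe sets were below 0, between −0.37 and −0.55, and 3 of them had separate groups. Mog, a surface glycoprotein of the outer myelin layer, was at −0.36, and its other probe set at −0.44, both with separate groups.

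The enzyme Ugt8, which makes the myelin lipid galactosylceramide, was at −0.37, and Pllp, the myelin proteolipid plasmolipin, at −0.35. Car2, the carbonic anhydrase of oligodendrocytes, was at −0.35 and Lpar1, a lysophosphatidic acid receptor of maturing oligodendrocytes, at −0.34. The remaining members with separate groups were Gjb1, a gap junction protein, at −0.22, and Cspg4, the NG2 proteoglycan of oligodendrocyte precursors, at −0.17. Mbp, the myelin basic protein, overlapped: it read 5513, 5551 and 4741 in PBS and 3577, 5477 and 4836 after kainate. Cnp, an enzyme of non-compact myelin, also overlapped, at −0.17, and so did the receptor Pdgfra, at −0.33. The members above 0 were Sox10, the transcription factor of the lineage, at 0.10, and Pmp22 at 0.23.

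Kainate replicate 1 carried the lowest myelin values. The mean log2 value of the 17 genes, relative to the PBS mean, was −0.42, −0.10 and −0.26 on the kainate arrays and 0.02, −0.05 and 0.03 on the PBS arrays, so the groups did not overlap. Kainate replicate 2 was only slightly below the PBS arrays. Without kainate replicate 1 the list median was −0.24, and 11 of 17 members had separate, lower groups, against 21.3% of all genes on the same 5 arrays. Ttr was low on kainate replicate 1 and high on kainate replicate 2, and how much neighbouring tissue entered each sample was not tested. The same list had a median of −0.10 at 24 h and 0.00 at 240 h. No myelin gene had a kainate effect at 72 h that differed from that at 24 h or 240 h past the threshold.

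**Figure D3:**
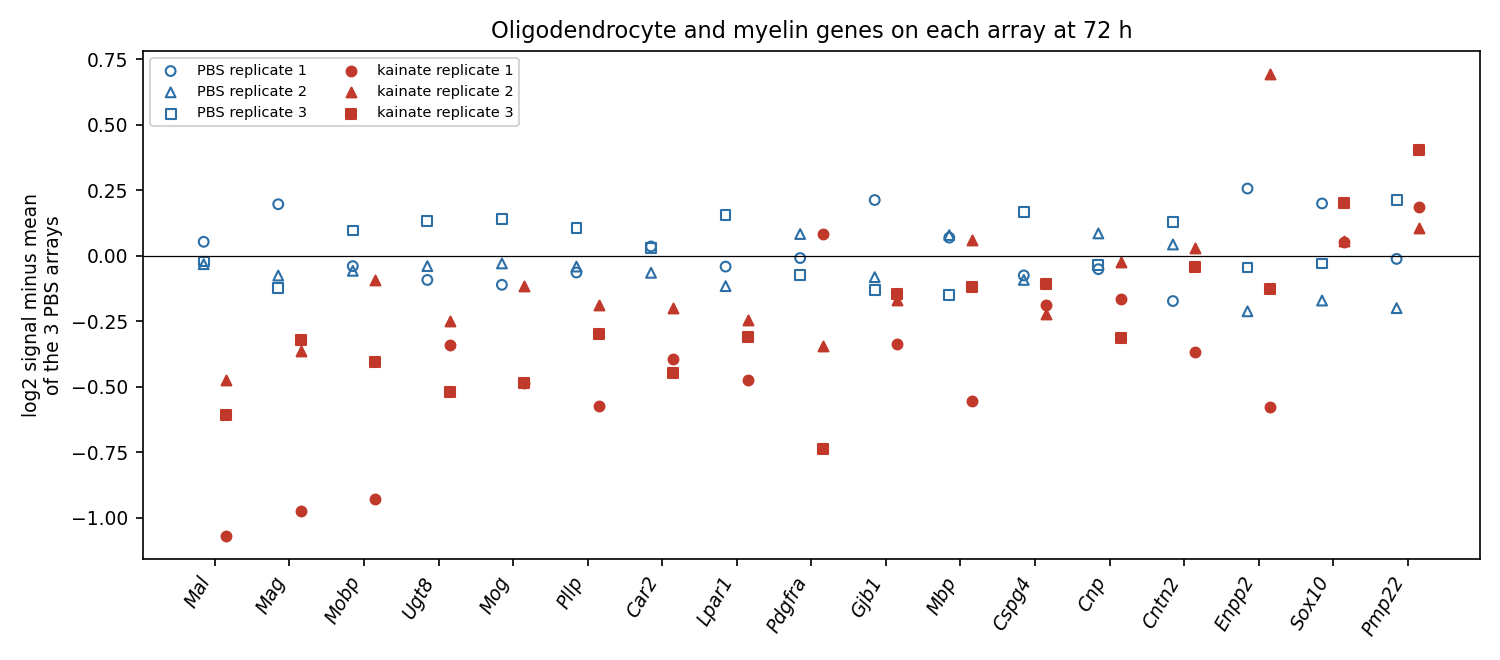
Log2 signal of each tested oligodendrocyte and myelin gene on each array of 72 h, minus the mean of the 3 PBS arrays (open blue PBS, filled red kainate; the shape gives the replicate). The kainate points of Mal, Mag and Mobp lie lowest, and kainate replicate 1 reaches about −1 there.

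Heat shock and endoplasmic reticulum stress genes showed the opposite sign. Of 27 tested members, 21 lay above 0, with a median of 0.18 (range −0.29 to 0.88). The median was 0.10 without kainate replicate 3 and 0.27 without kainate replicate 2. Separate, higher groups were seen in 8 (29.6%, against 10.6% of all genes) and separate, lower groups in 1, Hspa1a, an inducible Hsp70, at −0.29. With array weights, 5 passed as higher, Ddit3, Hsp90ab1, Hspa5, Pdia3 and Pdia6, where 71 of all genes did (2.18%).

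The largest difference of the list was that of Ddit3, the stress transcription factor CHOP. It was weak in PBS at 33.8, 47.2 and 44.1 and read 56.0, 89.0 and 87.1 after kainate, at 0.88 ± 0.28 (limma adjusted p = 0.322). Hspa5, the chaperone BiP and the main sensor partner of the unfolded protein response, read 497, 552 and 580 in PBS and 745, 720 and 738 after kainate. Its log2 difference was 0.44 ± 0.13 (limma adjusted p = 0.270), and the kainate arrays lay close together above all PBS arrays. Pdia3, a disulfide isomerase that folds glycoproteins, read 351, 437 and 417 in PBS and 529, 543 and 626 after kainate (0.50 ± 0.14, adjusted p = 0.234), but its other probe set was separate and lower, at −0.40. Pdia6, a further disulfide isomerase, read 303, 438 and 437 in PBS and 547, 534 and 628 after kainate (0.55 ± 0.17, adjusted p = 0.299).

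Other endoplasmic reticulum members had overlapping groups. Serp1, a stress-associated membrane protein, was at 0.26 and its other probe set at 0.42, while Hyou1, a large Hsp70 relative, was at 0.25 and its other probe set at −0.09. Hsp90b1, the compartment's Hsp90, was at 0.16, the lectin chaperones Canx at 0.13 and Calr at 0.09, and the isomerases P4hb at 0.03 and Pdia4 at −0.12. Differences between members were not tested.

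Hspa5, Hsp90b1, Canx and Calr are the members whose promoters hold the endoplasmic reticulum stress element, the shared sequence through which the unfolded protein response acts. They are shown so that the values of genes with a common element can be set side by side. In the RefSeq promoter windows of the rat build GRCr8 (250 bases before to 50 after the start), the element was searched as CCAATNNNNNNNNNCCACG on both strands. It occurs in 22 of 33469 windows (0.0657%) and in 4 of the 22 list members with a window, out of 27 tested. Copies outside the window or with other letters were not searched for, so members without a match may still hold the element. Capitals mark the element, and only bases before the start are shown.
Hspa5, chr3:38452953-38453011, plus strand: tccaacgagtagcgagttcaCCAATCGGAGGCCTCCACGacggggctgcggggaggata
Hsp90b1, chr7:23012431-23012489, minus strand: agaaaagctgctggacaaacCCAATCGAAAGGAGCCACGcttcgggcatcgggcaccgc
Hsp90b1, chr7:23012327-23012385, minus strand, element in reverse: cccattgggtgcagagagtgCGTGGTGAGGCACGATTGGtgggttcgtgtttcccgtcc
Canx, chr10:35158049-35158107, minus strand: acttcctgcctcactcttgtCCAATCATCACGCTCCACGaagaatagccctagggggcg
Calr, chr19:40213117-40213173, plus strand, element in reverse: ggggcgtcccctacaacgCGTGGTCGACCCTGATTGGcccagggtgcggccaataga
The match in Hspa5 begins 43 bases before the start. Of these 4 genes Hspa5 alone had separate groups at 72 h. The window of Ddit3, the member with the largest difference, does not hold these letters, and the tables used held no window for Pdia3 or Pdia6. A match describes letters and is no measurement of binding.

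In the cytosol and mitochondria, Hsp90ab1, the constitutive Hsp90, read 3079, 3476 and 3323 in PBS and 4054, 4072 and 4532 after kainate (0.36 ± 0.12, limma adjusted p = 0.346). The Hsp40 co-chaperone Dnajb1 was at 0.30, and the mitochondrial chaperonin Hspd1 at 0.26, both with separate groups. Hspa9, the mitochondrial Hsp70, was at 0.77 on its brightest probe set, with overlapping groups, and at −0.02 and 0.25 on the others. The co-chaperonin Hspe1 and the Hsp110 protein Hsph1 were at −0.16 and −0.12. Averaged over the list, the kainate arrays stood at 0.13, 0.14 and 0.35 and the PBS arrays at −0.08, 0.02 and 0.06 relative to the PBS mean, without overlap; kainate replicate 3 was highest. The list median was 0.15 at 24 h and 0.05 at 240 h.

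Oxidative stress genes showed a smaller shift of the same sign. Of 27 tested members, 18 lay above 0 and 7 had separate, higher groups (25.9%, against 10.6% of all genes). The median was 0.12. Besides Prdx6 these were Gstp1 (0.46 ± 0.13, limma adjusted p = 0.270) and Gstm1 (0.43 ± 0.13, adjusted p = 0.307), glutathione transferases, Mt3, the brain metallothionein (0.38 ± 0.15), the peroxiredoxin Prdx2 (0.33 ± 0.13), and the superoxide dismutases Sod1 (0.26 ± 0.16) and Sod2 (0.23 ± 0.20). The other 2 tested probe sets of Sod1 were separate in the opposite direction, at −0.18 and −0.25. Gstm1 read 968, 907 and 943 in PBS and 1331, 1208 and 1261 after kainate. Gstp1 read 500, 575 and 524 in PBS and 740, 688 and 771 after kainate. With array weights, Gstm1, Gstp1, Prdx2 and Prdx6 passed.

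Hmox1, heme oxygenase, was the only member with separate, lower groups, at −0.19, and Nqo1 and Gsr, a quinone reductase and glutathione reductase, overlapped at −0.01 and 0.11.

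**Figure D4:**
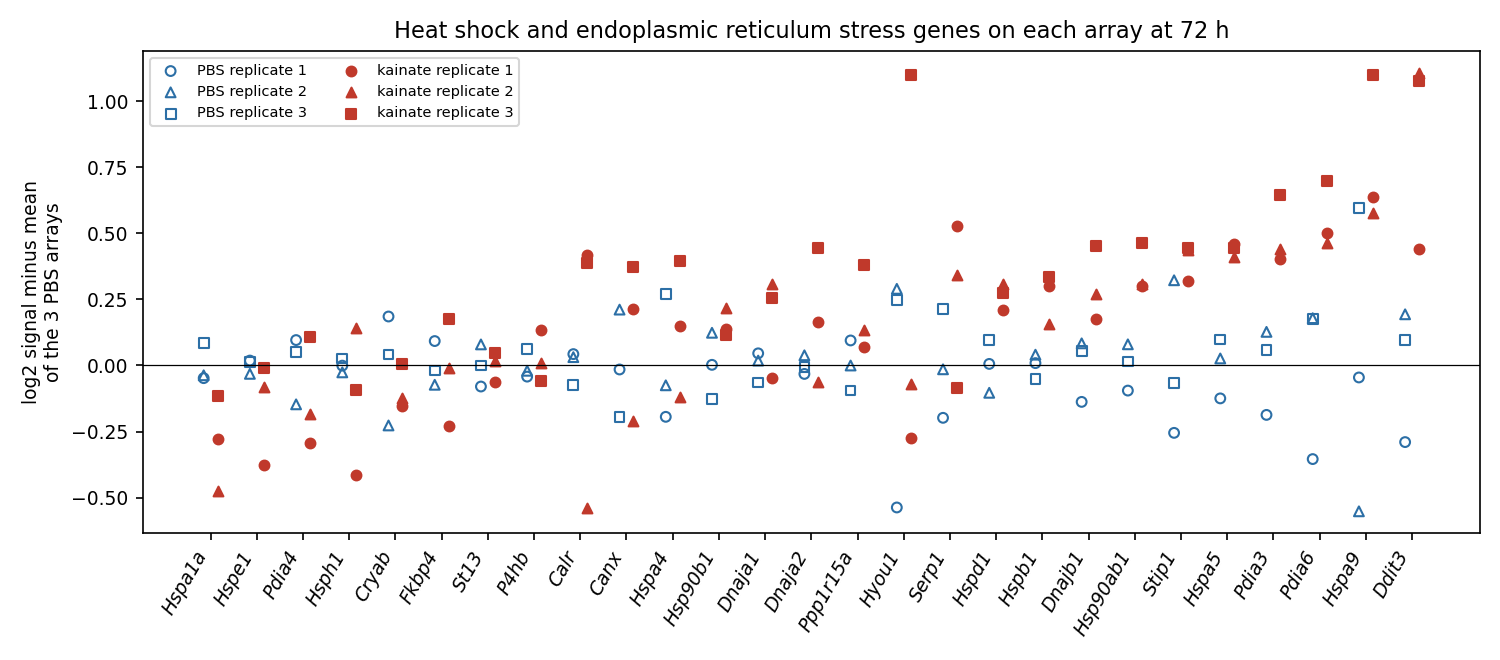
Log2 signal of the tested heat shock and endoplasmic reticulum stress genes on each array of 72 h, minus the mean of the 3 PBS arrays (open blue PBS, filled red kainate; the shape gives the replicate). Kainate points of Hspa5, Pdia3, Pdia6 and Ddit3 lie above all of their PBS points, and those of Hyou1 and Hspa9 do not.

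General astrocyte markers stayed close to control. The 17 tested members had a median of 0.06 and 3 had separate, higher groups (17.6%, against 10.6% of all genes). The glutamate transporters Slc1a3 and Slc1a2 were at 0.06 and −0.06, glutamine synthetase Glul at 0.07, the water channel Aqp4 at 0.06 and the glycolytic enzyme Aldoc at −0.08, all with overlapping groups. The member with the largest difference was Fabp7, a fatty acid binding protein of radial glia and astrocytes. It read 283, 252 and 272 in PBS and 460, 354 and 435 after kainate (0.62 ± 0.15, limma adjusted p = 0.122), and it passed with array weights. Atp1b2, a sodium pump subunit of astrocytes, was at 0.16 with separate groups, while its other probe sets overlapped at −0.00 and −0.13. Ntsr2, a neurotensin receptor of astrocytes, was at −0.22 and the potassium channel Kcnj10 at −0.31, both separate and lower. The other probe set of Kcnj10 overlapped at 0.23.

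Reactive astrocyte genes had a median of 0.17 over 16 tested members, with 6 separate and higher (37.5%, against 10.6% of all genes) and 3 separate and lower. The intermediate filament vimentin (Vim) read 131, 151 and 146 in PBS and 234, 175 and 198 after kainate (0.50 ± 0.21, limma adjusted p = 0.688). S100a10, an annexin partner, was at 0.64, the hyaluronan receptor Cd44 at 0.51, the secreted chaperone clusterin (Clu) at 0.28 and the small heat shock protein Hspb1 at 0.26. Lgals1, galectin-1, was weak, at 17.8, 18.0 and 14.7 in PBS and 38.9, 42.8 and 54.7 after kainate (1.42 ± 0.54, adjusted p = 0.542). It was above 35 only on the kainate arrays, so the filter fixed its direction. Without it 5 of 15 members were separate and higher, against 10.4% of all genes counted the same way, and the list median was 0.12. Nestin (Nes), a filament of progenitors and reactive astrocytes, read 133, 135 and 145 in PBS and 110, 93.7 and 92.7 after kainate (−0.48 ± 0.18). Serpina3n, an acute-phase protease inhibitor, was at −0.21 and the growth factor Fgf2 at −0.22, also separate and lower. Lcn2, C3, Cp, Anxa1 and Socs3 of this list were on the array but under the signal filter. At 24 h the list of 16 had a median of 1.21, with 8 members passing as higher (5.36% of all genes did).

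Microglia and macrophage markers were low on these arrays. Of 27 listed, 16 were on the array and 10 passed the filter. The defining genes Itgam and Csf1r did not. The tested members had a median of 0.15, and 2 had separate, higher groups (20%, against 10.6% of all genes): Ctss, a lysosomal protease of microglia, at 0.22 and Cd14, a lipopolysaccharide co-receptor, at 0.15. Cx3cr1 and Aif1 overlapped at 0.11 and 0.16, and P2ry12, a receptor of surveying microglia, at 0.32. Of the 10 tested members 7 lay above 0 and 3 below, the lowest at −0.33. The mean of the list, relative to the PBS mean, overlapped between the groups. It was 0.09, 0.11 and 0.03 on the kainate arrays and −0.10, −0.04 and 0.14 on the PBS arrays.

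Among 12 tested genes of complement and antigen presentation, 3 had separate, higher groups (25%, against 10.6% of all genes). C1qb, a chain of the complement recognition protein made by microglia, read 106, 122 and 102 in PBS and 219, 175 and 148 after kainate (0.70 ± 0.25, limma adjusted p = 0.466). C1qc was at 0.17. Psmb8, a subunit of the immunoproteasome, read 58.1, 32.7 and 20 in PBS and 85.6, 66.1 and 86.9 after kainate (1.23 ± 0.41, adjusted p = 0.385). The list median was 0.17, and with array weights C1qb passed.

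Activity-dependent transcription factors stood below control. Of 16 tested immediate early factors, 12 lay below 0, the median was −0.17, and 8 had separate, lower groups (50%, against 13.1% of all genes) and none separate, higher groups. Nr4a3, an orphan nuclear receptor, read 197, 203 and 206 in PBS and 148, 145 and 143 after kainate, the tightest separation among them (−0.48 ± 0.15, limma adjusted p = 0.322). It passed with array weights. Nr4a1 was at −0.61, Crem at −0.45, Egr4 at −0.32, Egr1 and Atf3 at −0.29, Fos at −0.25 and Fosl2 at −0.16. At 24 h the list median had been −0.34, with 4 members passing as lower (8.34% of all genes did), and at 6 h it was 1.10. The members' mean was lower on each kainate array (−0.19, −0.13 and −0.16) than on each PBS array (−0.03, −0.02 and 0.05).

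Of 20 activity-regulated effector genes, 6 were separate and lower (30%, against 13.1% of all genes) and 2 separate and higher. Arc, a regulator of AMPA receptor uptake at synapses, read 525, 493 and 512 in PBS and 330, 414 and 414 after kainate (−0.41 ± 0.16, limma adjusted p = 0.536). The higher ones were Gadd45a, a DNA damage response gene, at 0.55 and the neurotrophin Bdnf at 0.32. Bdnf read 74.9, 66.2 and 83.0 in PBS and 86.2, 93.1 and 99.2 after kainate. Genes that answer glucocorticoids had a median of −0.26 over 9 members, with Errfi1, Nr3c2 and Sgk1 separate and lower (33.3%, against 13.1% of all genes). Over every tested probe set of the glucocorticoid list, 3 of 17 were separate and lower (17.6%, nearer the 12.6% of all probe sets).

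Neuronal markers had separate, lower groups at about the rate of all genes. The 24 had a median of −0.07, against −0.04 for all genes, with 4 separate and lower (16.7%, against 13.1% of all genes) and 1 higher. Of the 24, 17 lay below 0 and 7 above. Their mean was −0.18, −0.03 and −0.11 on the kainate arrays and −0.02, 0.01 and 0.01 on the PBS arrays. The groups were separate only narrowly, with kainate replicate 2 at −0.025 and PBS replicate 1 at −0.023. The mean of all genes was −0.003, −0.052 and −0.031 on the kainate arrays, so on kainate replicate 2 the neuronal markers lay above it. Over every tested probe set of the neuronal list, 5 of 42 were separate and lower (11.9%, against 12.6% of all probe sets). Nrgn, the calmodulin-binding protein neurogranin of principal-cell dendrites, read 2616, 2489 and 2458 in PBS and 1780, 2212 and 2004 after kainate (−0.34 ± 0.12, limma adjusted p = 0.478). Hpca, the hippocampal calcium sensor hippocalcin, was at −0.22, the neurofilament Nefl at −0.25 and the complexin Cplx1 at −0.24. Thy1, Snap25 and Map2, further neuronal genes, were at 0.17, 0.14 and 0.06. At 24 h the list median had been −0.44, with 10 members passing as lower (8.34% of all genes did).

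Among interneuron markers, 4 of 14 were separate and lower (28.6%, against 13.1% of all genes) and 1 separate and higher. The lower ones were the calcium-binding proteins Pvalb (−0.43), Calb1 (−0.32) and Calb2 (−0.22), and Gad1, which makes GABA (−0.41). Gad1 read 731, 763 and 706 in PBS and 574, 496 and 590 after kainate. Npy, neuropeptide Y, was the member on the other side: it read 321, 315 and 333 in PBS and 445, 450 and 497 after kainate (0.52 ± 0.14, limma adjusted p = 0.177). Npy and Gad1 passed with array weights.

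The 72 h values were next set against those of 24 h, to ask which kainate effects differed between these times. The 4 groups share no array. In limma's test of the difference, 36 of 5426 probe sets passed (0.663%), of which 30 had a lower and 6 a higher effect at 72 h. Of these, 30 carry 28 gene symbols. Counted by the brightest probe set of each gene, 23 of 3263 genes passed (0.705%). Vgf, a secreted neuropeptide precursor that neurons make after activity, had been 1.53 above PBS at 24 h and was at 0.08 at 72 h, a difference of −1.45 ± 0.20 (adjusted p = 0.000154). At 24 h it had read 455, 467 and 418 in PBS and 1378, 1207 and 1286 after kainate. At 72 h it read 456, 484 and 364 in PBS and 432, 475 and 466 after kainate, so the groups overlapped.

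Of the 16 reactive astrocyte genes 4 passed this test, Vim, Timp1, Serpina3n and S100a10. Vim went from 2.55 at 24 h to 0.50 (difference −2.05 ± 0.30, limma adjusted p = 0.000230). Timp1, an inhibitor of matrix metalloproteinases, went from 1.90 to 0.01, and Serpina3n from 1.22 to −0.21. Timp1 had read 576, 704 and 550 on the kainate arrays of 24 h and read 162, 176 and 158 on those of 72 h, against 154 to 171 in the PBS arrays of 72 h. Cd63, a tetraspanin of lysosomes and exosomes, went from 1.66 to 0.26, and Fabp7 from 1.85 to 0.62. Fabp5, a related fatty acid carrier, went from 0.67 to −0.11.

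H19, an imprinted non-coding RNA, had a difference of −4.66 ± 0.88 (limma adjusted p = 0.00498). At 24 h it had read 43.3, 73.7 and 9.17 in PBS and 453, 502 and 439 after kainate. The lowest PBS value was below the floor, so the size depends on it: with log2(signal + 16) and no floor, the difference was −3.82. At 72 h it read 62.9, 18.9 and 48.7 after kainate and 59.5, 68.5 and 79.1 in PBS. For Hspb1, the brightest probe set, which represents the gene above, moved little, at −0.07 at 24 h and 0.26 at 72 h. The other 3 tested probe sets of Hspb1 went from 2.79, 4.11 and 5.28 at 24 h to 0.40, 0.73 and 0.75 at 72 h, and all 3 differences passed. Aldoc went the other way: it was at −0.83 at 24 h and at −0.08 at 72 h, a difference of 0.75 ± 0.18 (adjusted p = 0.0494). The other tested probe set of Aldoc went from −0.49 to −0.08, and its difference of 0.41 did not pass (limma adjusted p = 0.516).

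Most genes that had differed at 24 h still lay on the same side at 72 h, with smaller differences. Each set below was chosen for passing at its own time. That choice by itself favours larger differences at that time than at 72 h, and its share in the decline was not tested. For comparison, 1406 of all 3263 genes were above 0 at 72 h and 1857 below. Of the 175 genes higher at 24 h (adjusted p under 0.05), 143 were above 0 at 72 h (81.7%), and 67 had separate, higher groups (38.3%, against 10.6% of all genes). Their median went from 0.76 at 24 h to 0.22 at 72 h and −0.03 at 240 h. Of the 272 genes lower at 24 h, 251 were below 0 at 72 h (92.3%), and 104 had separate, lower groups (38.2%, against 13.1% of all genes). Their median went from −0.72 to −0.20 and then 0.07. Only 3 genes of each set had separate groups in the opposite direction at 72 h. Of the 88 genes higher at 6 h, 44 were above 0 at 72 h, with a median of −0.01. In 12 of them the groups were separate and higher, and in 18 separate and lower. Of the 31 genes lower at 6 h, 10 were below 0 at 72 h, with a median of 0.13. In 1 the groups were separate and lower, and in 10 separate and higher.

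Across the 3263 genes the 72 h and 24 h differences had a Pearson r of 0.44 and a Spearman rho of 0.48. Against 1, 6 and 240 h, r was −0.01, −0.05 and 0.03. Genes are not independent replicates and share their arrays, so these values are descriptions without a test. The list medians differed in how they ran from 24 h to 72 h: reactive astrocyte genes went from 1.21 to 0.17 and neuron markers from −0.44 to −0.07, while the myelin list went from −0.10 to −0.33 and the heat shock and endoplasmic reticulum stress list from 0.15 to 0.18. Whether the lists differed in this was not tested.

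**Figure D5:**
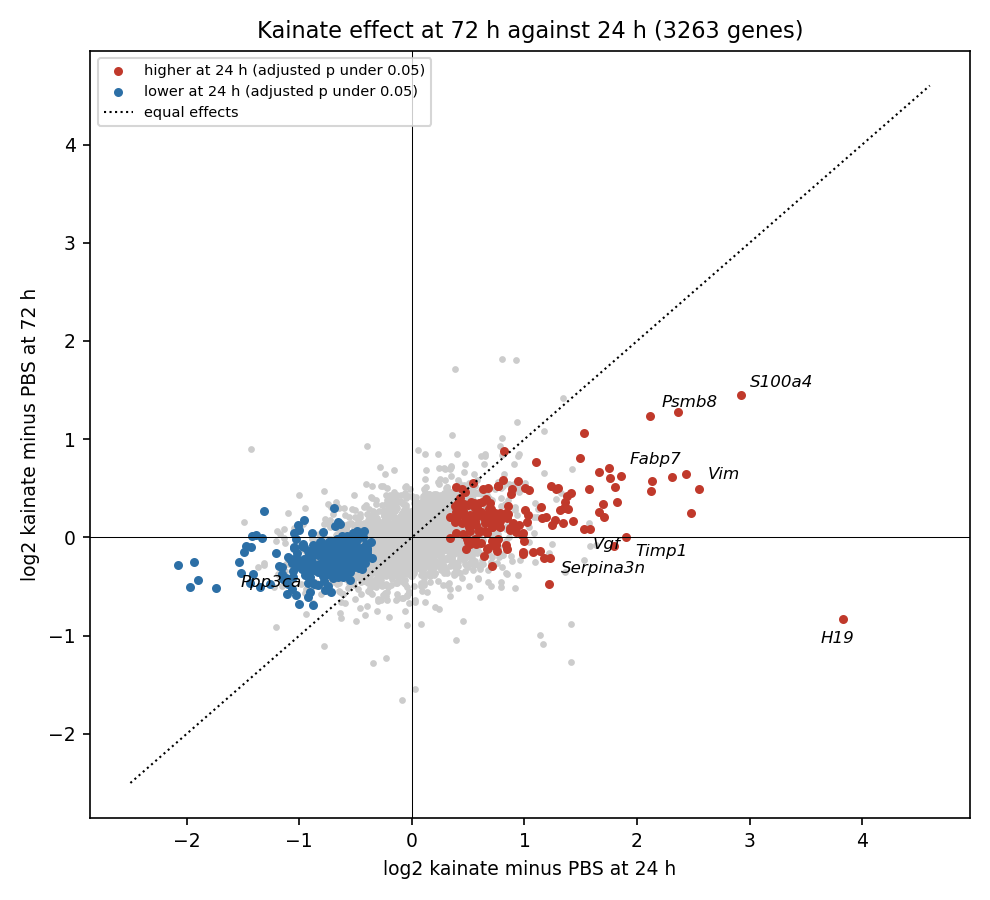
Each point is 1 of 3263 genes: log2 kainate minus PBS at 24 h on the horizontal axis and at 72 h on the vertical axis; red and blue mark genes that passed at 24 h, higher (175) and lower (272), and the dotted line marks equal effects. Coloured points lie mostly on their 24 h side but closer to 0 at 72 h, and H19 lies below 0.

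Compared with 240 h, no probe set had a kainate effect at 72 h that differed (0 of 5426, 0.0% in limma; 447 at an unadjusted p under 0.05). The genes with the smallest p were Pola2, a DNA polymerase alpha subunit, at −0.11 at 72 h and 2.0 at 240 h, Hbegf, an EGF receptor ligand, at −0.26 and 1.84, and Pnoc, at −0.45 and 0.31. Also among them were Nxpe5l3 (−0.36 and 0.63), the connexin Gja5 (−0.30 and 0.56), the apolipoprotein Apom (−0.37 and 1.61), the glycosyltransferase Galnt5 (−0.55 and 0.45) and the collagen chain Col5a1 (−0.25 and 0.94). The adjusted p of these 8 lay between 0.293 and 0.345. Each was below 0 at 72 h and above 0 at 240 h.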

How the data were processed

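Hippocampal RNA was measured on 30 short-oligonucleotide arrays with 8799 probe sets, 59 of them array controls. The deposited values are intensity signals on a linear scale. The authors had brought every array to a common trimmed mean (150.1 to 150.2, leaving out 2% at each end), as read from the deposited values; no label or header names the software. Their number of arrays limits the precision.

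Signals under the 20th percentile of all values (10.9) were set to it, and log2 was taken. Fold changes of weak genes depend on this floor. Differences were fitted with limma 3.58.1 in R 4.3.3, with 1 mean per group over all 30 arrays (20 residual degrees of freedom, intensity trend, two-sided, Benjamini-Hochberg adjustment over 5426 probe sets, threshold 0.05). The script was tested on simulated data for the 72 h comparison with 5426 probe sets: of 100 probe sets changed by 0.5 (log2) 11% were recovered and of 100 changed by 1.0, 55%, with 0 false calls among 66.

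Symbols come from the array's annotation, updated by gene ID: 7006 probe sets had 1 gene (6985 matched a current ID), 308 several and 1426 none. A gene is represented by its brightest probe set over the 30 arrays, and 959 genes have more than 1 tested probe set. Of the tested probe sets, 19 passed the signal filter only through kainate arrays and 20 only through PBS arrays; the filter fixed their direction. Promoters are from RefSeq (GRCr8).

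Genes named are those that passed, the 8 with the smallest p in each direction and in each difference between times, and any member of the astrocyte, reactive astrocyte, microglial, myelin, heat shock and oxidative stress lists. Members of the other lists, Cyb5r3 and Ttr were named after their values were seen. The members, the lists and the tests were chosen with earlier results of these data known. A list is described by counts and its median, without a test.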

Additional observations from a re-analysis of the deposited data

Results flagged for a closer look

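The kainate effect of 11 named genes differed between 72 h and 24 h in limma's test of the difference (adjusted p under 0.05). Except for Aldoc, each had been higher after kainate at 24 h and had a lower effect at 72 h. The differences (log2, 72 h minus 24 h) were −2.05 for Vim, −1.90 for Timp1, −1.79 for S100a10, −1.45 for Vgf, −1.43 for Serpina3n and −1.40 for Cd63. They were −1.23 for Fabp7, −1.09 for Gpx1, −0.78 for Fabp5 and −4.66 for H19. Aldoc had been lower at 24 h, and its difference was 0.75.

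S100a10 read 640, 793 and 808 on the kainate arrays of 24 h and 139, 118 and 98.5 on those of 72 h. Gpx1, a glutathione peroxidase, read 674, 926 and 939 on the kainate arrays of 24 h, against 351, 406 and 291 in PBS. At 72 h its kainate arrays read 311, 286 and 337 and its PBS arrays 290, 276 and 257. Aldoc read 1063, 1336 and 1013 on the kainate arrays of 24 h and 1961, 2078 and 1826 on those of 72 h, against 1945 to 2190 on the PBS arrays of both times. The differences of Aldoc and Gpx1 had the highest adjusted p of the 11, 0.0494 and 0.0395. On the other tested probe sets of Aldoc and Gpx1 the differences were 0.41 and −0.55 and did not pass (limma adjusted p = 0.516 and 0.735).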

How the results depend on the processing

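The count of probe sets that passed at 72 h was 4 under quantile normalization, with log2(signal + 16) and with a filter on the mean signal. It was 3 without the intensity trend, 10 without the filter on low values, 5 with only the arrays of 6 and 72 h and 152 with array weights. With only the 6 arrays of 72 h it was 0, with 857 probe sets at an unadjusted p under 0.05, and the cause was not tested. Leaving out 1 array gave 0 to 1. For the difference between 72 and 24 h, 36 passed as reported, 56 with array weights and 23 to 36 without 1 array; it was 23 without PBS replicate 1, 23 without kainate replicate 2 and 23 without kainate replicate 3, of which 23, 22 and 22 were among the 36. For 72 against 240 h, 1 passed without the filter on low values and 0 in every other fit.

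The replicate numbers are shared between the groups but do not pair the arrays: deviations of same-numbered kainate and PBS arrays of 72 h correlated at −0.05, 0.04 and −0.07. With the replicate number within each time as a block, 0 probe sets passed at 72 h, 20 differed between 72 and 24 h and 0 between 72 and 240 h. S100a4 and B4galt6 had an adjusted p of 0.0992 with the block.

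Alternatives were followed for 36 genes at 72 h. These were chosen from the same arrays, for passing, for a small p or, in the glial and stress lists, for a change large against its standard error. No alternative turned a direction, which that choice made likely beforehand. Of their values, 489 stayed on their side of the threshold, 33 came past it, mostly with array weights, and 16 fell short of it. Under alternatives the difference from 24 h missed the threshold for Aldoc, Gpx1 and S100a10 in several fits and for Serpina3n with the block. The median of the myelin list ran from −0.24 to −0.35 and that of the heat shock and endoplasmic reticulum stress list from 0.10 to 0.27, over quantile normalization, averaging a gene's probe sets and each array left out. Of 240 recomputed list medians, 44 moved by more than the spread between arrays. The array-weight and non-overlap counts for lists, also without genes above 35 in 1 group only, were added after the data were seen.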

Other observations

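Genes of fatty acid oxidation and peroxisomes, a list written after the values were seen, had a median log2 difference of 0.07 over 34 tested members, with 8 separate and higher (23.5%, against 10.6% of all genes) and 1 separate and lower. Hadha, a subunit of the mitochondrial trifunctional protein, read 415, 515 and 450 in PBS and 673, 572 and 730 after kainate (0.52 ± 0.13, limma adjusted p = 0.152). Slc27a1, a fatty acid transport protein, read 345, 388 and 349 in PBS and 484, 433 and 538 after kainate (0.42 ± 0.12, adjusted p = 0.270). Hadha, Slc27a1 and Decr1 passed with array weights. At 24 h the list median was −0.02.

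Of 54 oxidative phosphorylation subunits, 11 were separate and higher (20.4%, against 10.6% of all genes) and 4 separate and lower, with a median of 0.03. Ndufb8, Ndufa4, Ndufc1 and Ndufs7, subunits of complex I, lay between 0.40 and 0.43. Of 43 cytosolic ribosomal proteins, 7 were separate and higher (16.3%, against 10.6% of all genes) and 2 lower, again with a median of 0.03. Among 33 ion channel genes 6 were separate and lower (18.2%, against 13.1% of all genes). Over every tested probe set of these genes, 7 of 50 were separate and lower (14%), near the 12.6% of all probe sets. The lower genes included the fast potassium channels Kcnc1 at −0.58 and Kcnc2 at −0.50. Kcna4, another potassium channel, was at 1.09, from 18.5, 23.9 and 27.3 in PBS to 45.7, 54.5 and 46.4 after kainate. Kcna4 was above 35 only on the kainate arrays, so the filter fixed its direction.

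Of 13 cell death regulators, 5 were separate and lower (38.5%, against 13.1% of all genes), the apoptosis inhibitors Bcl2 (−0.41) and Bcl2l1 (−0.22) as well as the effectors Casp6 (−0.81), Bid (−0.57) and Bak1 (−0.16), while Bcl2l11 was at 0.35. Casp6 was above 35 only on the PBS arrays, and without it 4 of 12 were separate and lower. Over every tested probe set of the cell death list, 5 of 21 were separate and lower (23.8%, against 12.6% of all probe sets). A further 3 were separate and higher (14.3%, against 10.8%), and the median was 0.04. Of 16 lysosomal genes, Ctsb, Lipa, Ctss and Ctsh were separate and higher (25%, against 10.6% of all genes), between 0.21 and 0.25. Cell cycle genes had 5 of 16 separate and higher (31.25%, against 10.6% of all genes), among them Ccnd1 at 0.31 and Cdk4 at 0.26. None of these members passed the limma threshold.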
